A study of Mus musculus with 2 samples.

Results

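Emx1 pallial progenitors of the septal explants were 893 of the 5827 cell barcodes in that library and of the 20110 barcodes in the series. They were chosen by UMI counts alone, where a UMI (unique molecular identifier) stands for 1 captured transcript molecule. Barcodes with a mitochondrial share under 4% were kept (5649), and of these the 3807 with more UMIs of 7 apical progenitor genes (Sox2, Hes1, Hes5, Vim, Nes, Fabp7, Slc1a3) than of 6 neuronal genes (Tubb3, Stmn2, Dcx, Elavl3, Gap43, Mapt) are called AP-type cells here. An Emx1 minimum of 2 UMIs left 1218 cells, no Gsx2 left 1153, and no Nkx2-1 left 1108. A limit of 2 UMIs for Fgf8 and Fgf17 together left 968, a limit of 1 for Wnt3a, Wnt2b and Rspo2 together left 919, and a limit of 1 for Eomes left the 893 members. The other 2914 AP-type cells are the comparison.

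The library pooled explants around the septum, the midline wall of the embryonic telencephalon. They came from 8 E11.5 PGKCre;Rosa26YFP embryos of 2 litters, in which a ubiquitous promoter drives Cre so that YFP marks cells of all lineages, and from 4 E12.5 Dbx1Cre;Rosa26tdTomato embryos, also of 2 litters, in which tdTomato marks only cells with a history of Dbx1 expression. The strain of both libraries was C57BL/6J, and GEO lists the genotype as wild type. The second library held telencephalic vesicles of 3 wild type embryos at about E12, and the rule was applied to it separately. Each library was 1 pool without replicates, and nothing below is a statistical test. All intervals are 95% intervals that cover counting error only.

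In the early telencephalon, apical progenitors line the ventricle and divide to make further progenitors or neurons. Position within the epithelium is set by signals from its edges: FGF from the rostral midline, WNT and BMP from the cortical hem at the dorsal midline, and Sonic Hedgehog from the ventral side. Emx1 is a homeobox factor of the dorsal territory, the pallium, which gives rise to the cerebral cortex and part of the septum. Gsx2 and Nkx2-1 mark progenitors of the ventral territory, the subpallium.

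Members were deeper than the cells they were compared with. Their 15853139 UMIs came at a median of 16444 per cell, from 3977 to 55093, against a median of 13321 in the other AP-type cells (43142840 UMIs in all). The median number of detected genes was 4079 and 3682, respectively. A minimum of 2 UMIs of a gene favours deep cells, and levels are therefore given as CPM, the pooled UMI count of a gene scaled to the summed UMIs of the same cells, and the main counts were repeated on cells thinned to 8000 UMIs. Neuronal genes of the rule had a median of 7 UMIs in both groups, and apical progenitor genes 55 against 40. The libraries shared 1 barcode sequence.

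The levels of the label's other markers, Sfrp1 and Pax6, are described here. Sfrp1, a secreted Wnt antagonist, was at 479 CPM in members and 186 CPM in the other AP-type cells, and Pax6, a transcription factor of dorsal progenitors, at 259 and 128 CPM. Neither gene was used by the rule. Members and gene lists were chosen with earlier results of these data known, so these levels are not an independent check of the label. Sfrp1 was found in 863 of 893 members (96.6%, exact Clopper-Pearson interval 95.2 to 97.7%) and Pax6 in 825 (92.4%, 90.4 to 94.0%), against 67.9% and 54.5% of the other AP-type cells. In neurons with at least 3 UMIs of Gad1 and Gad2, taken as cells that should have little of either gene, Sfrp1 was found in 23.6% and Pax6 in 39.7%, at a median depth of 11102.5 UMIs. Thinned to 8000 UMIs per cell, the shares in members were 92.6% for Sfrp1 and 80.3% for Pax6. Sfrp1 (ENSMUSG00000031548) lies on chromosome 8 of GRCm38 (mm10) from 23411502 to 23449632, Pax6 (ENSMUSG00000027168) on chromosome 2 from 105668900 to 105697364, and Emx1 (ENSMUSG00000033726) on chromosome 6 from 85187438 to 85204462, all on the plus strand.

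Levels of Sfrp1, Pax6, Lhx2 and Dct were higher just inside the minimum for Emx1 than just outside it, and Six3 was lower. Among cells that passed all other limits, the 282 with 1 Emx1 UMI, just outside, had 435 CPM of Sfrp1, 245 CPM of Pax6 and 264 CPM of Lhx2. The 225 with 2 UMIs, just inside, had 479, 272 and 330 CPM. Cells with 0 Emx1 UMIs (617) stood further off, with 246, 153 and 152 CPM. Pax6 did not rise further with more Emx1, at 266, 255 and 242 CPM with 3, 4 and 5 UMIs. No intervals are given for these levels, and a small step such as that of Pax6 may lie within counting error. Dct was at 5.37, 26.1 and 41.1 CPM with 0, 1 and 2 Emx1 UMIs, and Six3 at 45.3, 17.2 and 12.3 CPM. Other limits cut through cells like members. The 29 cells left out for 1 Gsx2 UMI had Sfrp1 at 463, Lhx2 at 528 and Dct at 64.5 CPM. The 22 left out for 1 Nkx2-1 UMI had 419, 494 and 66.4 CPM. Just outside the limits for Fgf8 and Fgf17, for Wnt3a, Wnt2b and Rspo2, and for Eomes were 8, 9 and 7 cells, with Sfrp1 at 252, 129 and 255 CPM.

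Genes were counted as higher or lower in members where their CPM differed by 1.5-fold or more, among 7514 genes with a mean of at least 10 CPM over both groups and without the genes of the rule, reporters and sex-linked genes. By this measure 149 genes were higher, which is 1.98% of the measured genes, and 256 were lower, which is 3.41%. The median gene stood at a log2 fold of 0.03. Thinned cells gave 164 and 286 genes, with 134 of the higher and 235 of the lower genes among them. The other AP-type cells include those that the rule set aside for Fgf8 and Fgf17, Nkx2-1, Gsx2, Eomes or Wnt3a, Wnt2b and Rspo2, and the comparison includes them. The plot of members against the other AP-type cells shows the called genes on both sides of the diagonal.

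**Figure D1:**
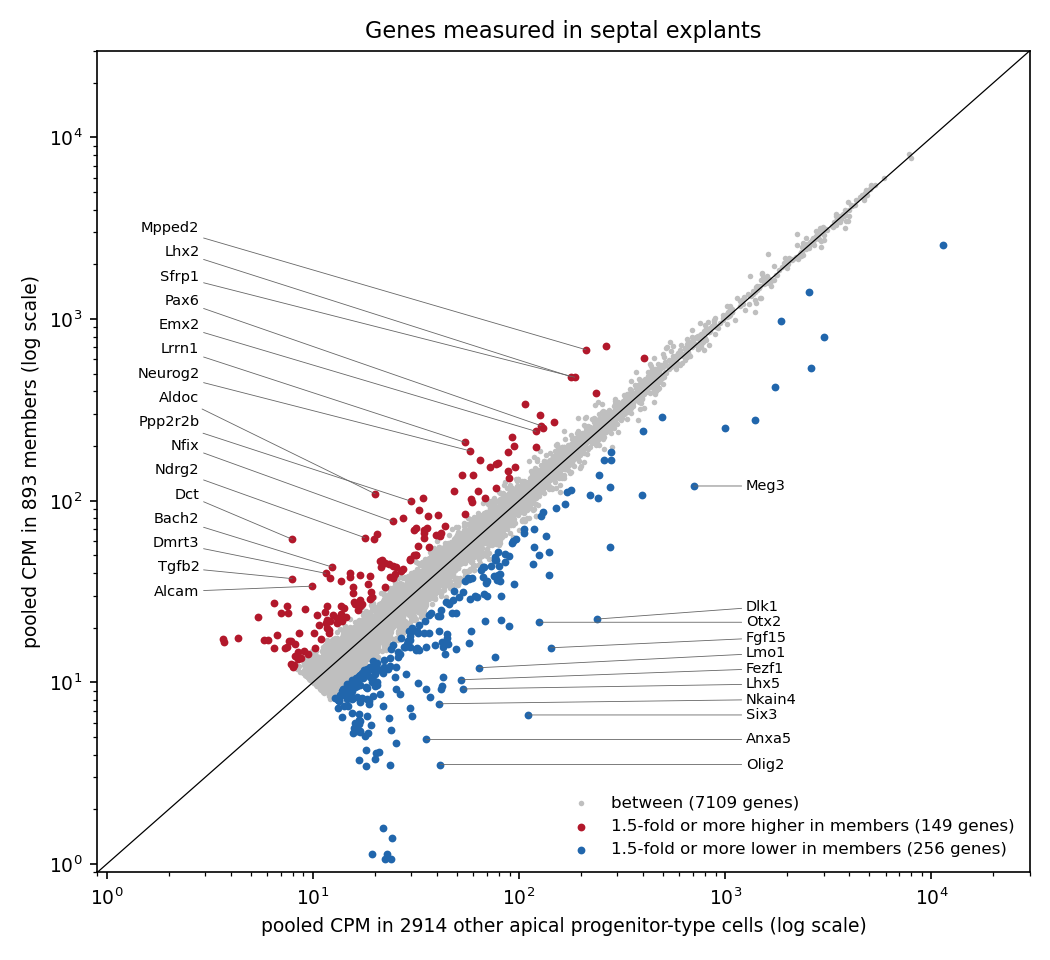
Pooled CPM of each measured gene in members (y axis) against the other AP-type cells (x axis), both on log scales, with the 23 named genes other than Hba-a2 and the markers Sfrp1, Pax6, Lhx2 and Emx2 labelled. The 149 higher and 256 lower genes lie at least 1.5-fold off the line of equal level, and most genes lie close to it.

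The 12 genes with the largest folds, among genes with a mean of at least 20 CPM, included enzymes, a secreted ligand and transcription factors. Dct, dopachrome tautomerase, known from pigment cells and from dorsal telencephalic progenitors, was at 61.4 CPM in members and 7.95 CPM in the others, 7.72-fold (interval 6.82 to 8.76), and was found in 48.7% of members and 7.31% of the others, beside 4.02% of the neurons with Gad1 and Gad2. Aldoc, a glycolytic aldolase of radial glia and astrocytes, was at 109 against 20.1 CPM (5.44-fold, 5.01 to 5.91). Tgfb2, a TGF-beta ligand, was at 37.3 against 7.93 CPM (4.70-fold), and Lrrn1, a leucine-rich repeat membrane protein, at 210 against 54.7 CPM (3.84-fold, 3.64 to 4.05).

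Against the 1932 other AP-type cells with no Emx1 UMI, Dct was 23.0-fold, Aldoc 9.56-fold and Lrrn1 7.53-fold higher. Among cells with 3 or more YFP UMIs, Dct was 6.29-fold, Aldoc 2.76-fold, Lrrn1 4.05-fold and Ndrg2 1.68-fold higher. Next in order came Ndrg2 (3.52-fold), the transcriptional regulators Bach2 (3.49-fold) and Dmrt3 (3.45-fold), the adhesion molecule Alcam (3.43-fold), the phosphatase subunit Ppp2r2b (3.35-fold), the proneural factor Neurog2 (3.27-fold), Mpped2 (3.21-fold) and the nuclear factor Nfix (3.16-fold). Mpped2 was the most abundant of these 12, at 678 CPM against 211 CPM. None of these genes was found in every member. The median member had 0 UMIs of Dct and Tgfb2, 1 of Aldoc and Neurog2, and 3 of Lrrn1. Mpped2 was found in 97.4% of members, 78.3% of the other AP-type cells and 29.2% of 89 erythroid cells, which should lack it.

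At the other end stood Six3, a factor of the rostral and ventral forebrain, at 6.62 CPM in members and 111 CPM in the other AP-type cells (0.060-fold, interval 0.049 to 0.073). Olig2, a factor of ventral progenitors, was at 3.53 against 41.2 CPM (0.086-fold). Dlk1, an imprinted non-canonical Notch ligand, was at 22.3 against 238 CPM (0.094-fold), and Meg3, the imprinted non-coding RNA of the same locus, at 121 against 705 CPM (0.171-fold). Fgf15, an FGF ligand, was at 15.5 against 142 CPM (0.109-fold). The others were Anxa5 (0.137), Otx2 (0.172), Lhx5 (0.173), Nkain4 (0.187), Lmo1 (0.189), Fezf1 (0.198) and the haemoglobin gene Hba-a2 (0.199).

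Hba-a2 differs from the rest of that group. Haemoglobin made up at least 10% of the UMIs of 3 members (up to 76.2%) and of 53 other AP-type cells, and 1 member held 31.2% of all haemoglobin UMIs of members. Without these cells and those with at least 10 UMIs of endothelial, macrophage and mesenchyme markers, 3 members and 94 others in all, haemoglobin was at 547 CPM in members and 568 CPM in the others, and the fold of Hba-a2 was 1.04. All 8 blood markers were lower in members, with a summed level of 4503 CPM against 19700 CPM and Hbb-y as the most abundant.

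The other marker lists were at low levels in members. Neuron markers summed to 21.5 CPM against 32.5 CPM, with Tbr1 as the most abundant (106 UMIs), Slc32a1 at 0 and 1 member with 10 or more UMIs. Cajal-Retzius markers summed to 22.2 against 69.2 CPM, with Lhx5 as the most abundant, none of 7 at 0 and 2 members with 10 or more UMIs, up to 35. Endothelial markers summed to 6.12 against 10.8 CPM, macrophage markers to 1.45 against 21.2 CPM with Csf1r at 0, and mesenchyme markers to 8.70 against 75.3 CPM, and no member had 10 UMIs of any of these lists. Without the 3 members and 94 other cells, 146 genes were higher and 245 lower, 141 and 221 of them as before.

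Of 20 transcription factors listed for pallial progenitors, 16 were measured, and 12 were higher in members. Lhx2, a selector of cortical identity that represses hem fate, was at 483 against 178 CPM (2.71-fold, interval 2.63 to 2.80), and Emx2, the paralogue of Emx1, at 241 against 121 CPM (1.997-fold). The doublesex-related factors Dmrta1 (2.51-fold), Dmrta2 (2.43-fold) and Dmrt3 were higher, as were Tfap2c (3.09-fold), Otx1 (3.00-fold), Tcf4 (2.34-fold), Fezf2 (2.04-fold) and Sall1 (1.92-fold). Otx2 and Sall3 (0.362-fold) were lower. The median log2 fold of the list was 1.13.

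The subpallial list gave the opposite picture, with 0 of its 7 measured genes higher and 6 lower. Dlx2, a homeobox factor of subpallial progenitors, was at 6.50 against 30.4 CPM (0.214-fold), and Olig1 at 1.39 against 24.3 CPM (0.057-fold), beside Olig2, Six3 and Otx2. The list median was a log2 fold of -2.54. The rule itself removed cells with Gsx2 or Nkx2-1 UMIs, and the comparison kept them. The list summed to 1017 CPM in the Gsx2 set and 934 CPM in the Nkx2-1 set, both described below, against 168 CPM in members. The part of these limits in the low subpallial genes was not tested.

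**Figure D2:**
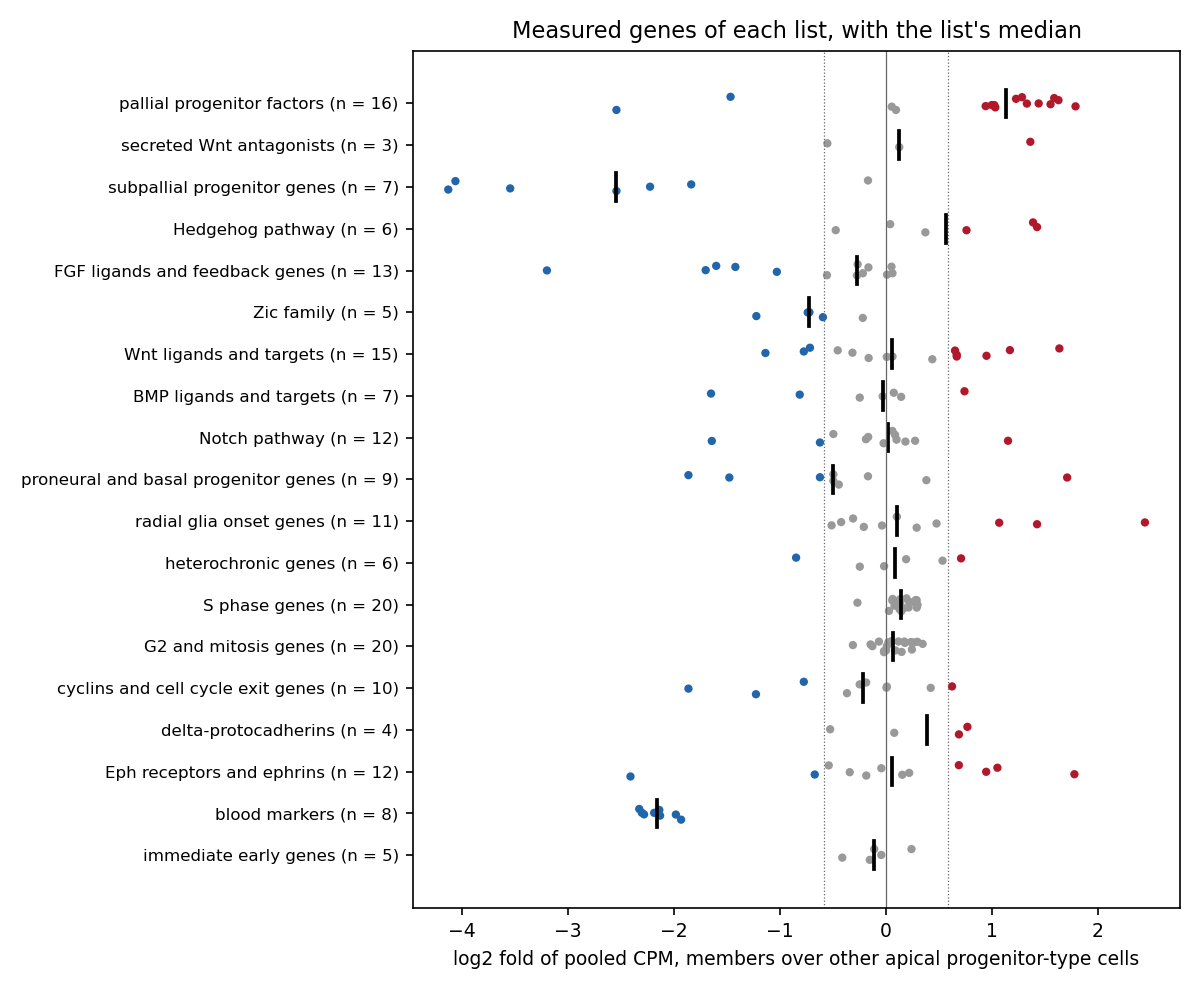
Log2 fold of pooled CPM, members over other AP-type cells, for the measured genes of each list with 3 or more of them; each point is a gene, black bars are list medians and dotted lines mark 1.5-fold. Pallial factors lie to the right with 12 of 16 genes higher, and subpallial genes to the left with 6 of 7 lower.

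Among genes of the Hedgehog pathway, the co-receptors were higher, the transducer Smo was level, and the receptor Ptch1 and the target Gli1 were scarce. Gas1, a Hedgehog co-receptor, was at 710 against 265 CPM (2.69-fold, interval 2.62 to 2.76), and the co-receptors Cdon (2.62-fold) and Boc (1.69-fold) were also higher. The repressor Gli3 was at 66.8 against 51.6 CPM and the transducer Smo at 68.5 against 66.6 CPM. Shh and Hhip had no UMI in members, and the target genes Gli1 and Ptch1, below the level counted, were at 0.063 and 2.59 CPM against 3.87 and 16.6 CPM in the other AP-type cells. In all 3 of 6 measured genes of the list were higher and 0 lower.

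FGF feedback genes were lower in part. Of 13 measured genes, 0 were higher and 5 lower: Fgf15, Spry2 (0.308-fold), Il17rd (0.330-fold), Spry1 (0.373-fold) and Etv4 (0.490-fold). Spry1 and Spry2 encode inhibitors that FGF signalling induces. Etv5, Dusp6 and Sp8, also known as FGF-responsive, were at 1.04, 0.680 and 1.01-fold. The rule itself removed cells with Fgf8 and Fgf17, and the Fgf set makes up 1187 of the 2914 other AP-type cells. Of the Zic family, factors of the midline, Zic4 (0.428-fold), Zic1 (0.606-fold) and Zic5 (0.662-fold) were lower, and Zic2 was at 15.5 against 18.0 CPM.

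Wnt genes were split. The ligands Wnt7b (1.93-fold) and Wnt7a (1.59-fold), the receptors Fzd9 (3.11-fold), Fzd1 (1.57-fold) and Tnfrsf19 (2.25-fold) and the effector Lef1 (1.59-fold) were higher. The effector Tcf7l2 (0.455-fold), the cell cycle gene Ccnd1 (0.584-fold) and the target Sp5 (0.608-fold) were lower, so that 6 of 15 measured genes were higher and 3 lower. Axin2, a general Wnt target, was at 22.7 against 21.8 CPM. Of 7 BMP genes, the targets Id1 (0.318-fold) and Id3 (0.569-fold) were lower and Id4 (1.67-fold) was higher. Of 3 measured Wnt antagonists Sfrp1 alone was higher, with Sfrp2 at 54.1 against 49.6 CPM.

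Of the Notch, proneural and basal progenitor genes, Neurog2 and Hey1 were higher in members and Dll3, Hes6, Cdkn1c and Rgs16 were lower. The rule kept members to at most 1 Eomes UMI and the other AP-type cells had no such limit. The part of that limit in these differences was not tested. Of 12 Notch genes, Hey1 (2.22-fold) was higher and Dll3 (0.320-fold) and Hes6 (0.649-fold) were lower. Of 9 proneural and basal progenitor genes Neurog2 was higher, at 188 against 57.6 CPM, and the cell cycle inhibitor Cdkn1c (0.275-fold), Rgs16 (0.359-fold) and Hes6 were lower, while Neurog1 was at 19.9 against 27.1 CPM and Btg2 at 111 against 157 CPM. Of the genes that mark the onset of radial glia, Aldoc, Gas1 and Ttyh1 (2.096-fold) were higher, 3 of 11. Ptn was at 303 against 350 CPM.

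The cell cycle lists were close to level. None of 20 S phase genes and none of 20 genes of G2 and mitosis differed by 1.5-fold, and their sums were 4253 CPM against 3790 CPM and 6076 against 5839 CPM. In 856 of 893 members the G2 and mitosis genes had at least 10 UMIs. Among cyclins and inhibitors, Ccne1 (1.54-fold) was higher and Cdkn1c, Cdkn1a (0.427-fold) and Ccnd1 were lower. Of 6 heterochronic genes, Crabp2 (1.63-fold) was higher and Hmga1 (0.556-fold) lower.

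Among adhesion and guidance genes, 2 of 4 measured delta-protocadherins were higher, Pcdh9 (1.70-fold) and Pcdh19 (1.61-fold), and neither of the measured classical cadherins differed. Of 12 Eph receptors and ephrins, Epha5 (3.43-fold), Epha4 (2.07-fold), Efnb1 (1.93-fold) and Efnb2 (1.61-fold) were higher, and Ephb1 (0.188-fold) and Efna5 (0.628-fold) lower. Pcdh8, a protocadherin, and Dbx1, a homeobox factor of the septum and ventral pallium, were below the level counted. Pcdh8 was found in 48 members (5.38%, interval 3.99 to 7.06%) and Dbx1 in 23 (2.58%, 1.64 to 3.84%), against 11.1% and 8.58% of the other AP-type cells. Dbx1 was found in 79 of 295 cells of the Nkx2-1 set and 148 of 1187 of the Fgf set, both described below. It was found in 5 of 174 neurons with Gad1 and Gad2 (2.87%) and in 1 of 89 erythroid cells (1.12%, interval 0.028 to 6.10%). These neurons are shallower than members and are not known to lack Dbx1, and the erythroid interval is wide. Whether the share in members was above background is therefore not settled. Pcdh8 was found in 28.7% of these neurons and 2.25% of the erythroid cells (0.273 to 7.88%). No member had both genes, where the product of the shares gives 1.24 cells.

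Members were then set beside 4 regional sets of AP-type cells: 132 cells with 2 or more UMIs of Wnt3a, Wnt2b and Rspo2 (Wnt set, as at the cortical hem), 1187 with 3 or more of Fgf8 and Fgf17 (Fgf set), 180 with 2 or more of Gsx2 and 295 with 2 or more of Nkx2-1, the last 2 sets without Emx1 and the Gsx2 set also without Nkx2-1. The Fgf set shared 51 cells with the Wnt set, 109 with the Nkx2-1 set and 10 with the Gsx2 set. The median depths were 13883, 13508, 13777 and 11911 UMIs.

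Sfrp1 separated members from all 4 sets, at 479 CPM (exact Poisson interval 468 to 490) against 162 in the Gsx2 set, 115 in the Fgf set, 101 in the Wnt set and 45.9 in the Nkx2-1 set. Dct did likewise, at 61.4 CPM (57.6 to 65.4) against 10.3 in the Wnt set and at most 3.55 in the others. Otx2 was at 21.4 CPM in members and between 111 and 197 CPM in the sets, and Six3 at 6.62 against 63.0 to 203 CPM.

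Other genes were shared with a neighbour. Emx2 was at 241 CPM in members and 242 CPM in the Wnt set, within counting error of each other. Gas1 was at 710 CPM in members and 791 CPM in the Wnt set, against 41.5 CPM in the Nkx2-1 set. Low Dlk1 was also shared with the Wnt set (35.0 CPM), against 228 to 414 CPM in the other sets. With the Gsx2 set, members shared high Id4 (394 and 317 CPM, against 44.8 CPM in the Wnt set) and Efnb1 (250 and 189 CPM, against 52.7 CPM). The plot of levels by set shows these patterns side by side.

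**Figure D3:**
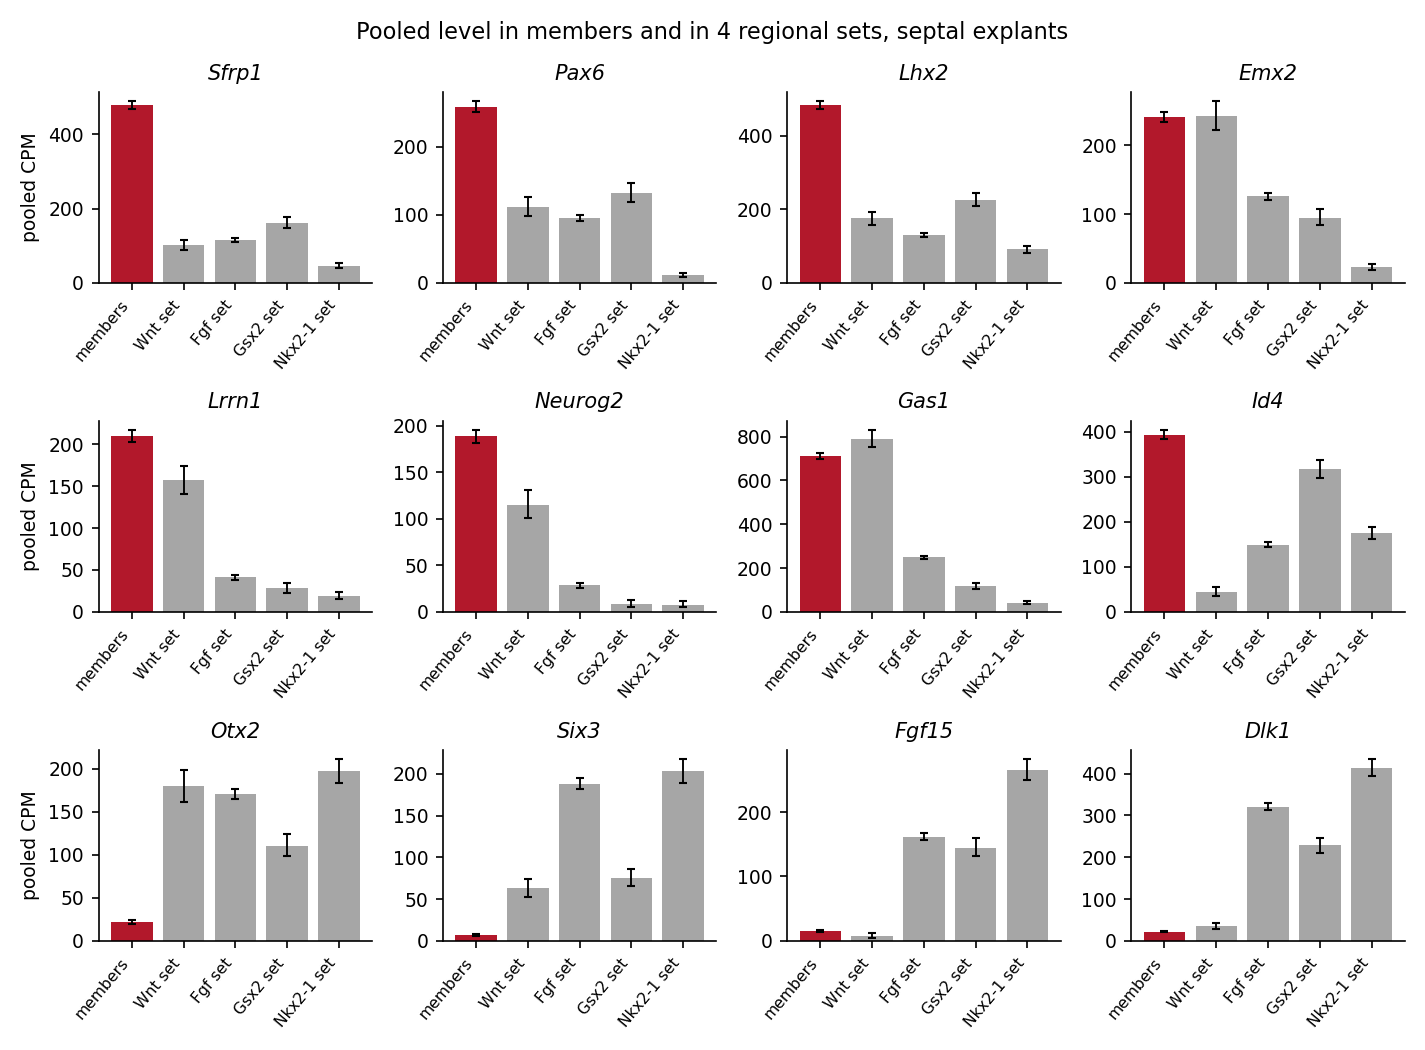
Pooled CPM of 12 genes (1 panel each) in the 893 members and in the Wnt, Fgf, Gsx2 and Nkx2-1 sets of AP-type cells; error bars are exact Poisson 95% intervals and cover counting error only. Sfrp1, Pax6 and Lhx2 are highest in members, Emx2 and Gas1 are at least as high in the Wnt set, and Otx2 and Six3 are lowest in members.

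The same rule was applied to the telencephalic vesicle library, made with another kit and another version of the counting software. It kept 361 of 8526 AP-type cells, at a median of 24837 UMIs against 10716 in the other 8165. Of the 149 genes higher in members of the septal explants, 132 were measured there, and 73 were also higher by 1.5-fold (55.3%), where 1.57% of the 7064 genes measured in both libraries were. Of the 202 lower genes measured there, 131 were also lower (64.9%), against 3.17% of all. On the same side of 1 were 117 (88.6%) and 194 (96.0%), where 3687 of all 7064 genes (52.2%) were above 1 in the vesicle.

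The genes that were alike included Tgfb2 (3.35-fold in the vesicle), Lrrn1 (3.32-fold), Cdon (2.50-fold), Gas1 (2.43-fold), Emx2 (2.32-fold), Lhx2 (2.25-fold), Sfrp1 (1.89-fold) and Pax6 (1.56-fold). Six3 stood at 0.057-fold, Olig2 at 0.040-fold and Otx2 at 0.130-fold. Of the pallial list 10 of 16 were higher, and of the subpallial list 6 of 6 were lower, where the rule again removed cells with Gsx2 or Nkx2-1 UMIs. Of the radial glia onset list 1 of 10 was higher and 3 were lower in the vesicle, against 3 of 11 and 0 in the septal explants, and of the BMP list 0 of 6 were higher and 3 lower. Dct, below the level counted there, was at 11.47 against 2.11 CPM.

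Aldoc and Ndrg2 were scarce in the vesicle and did not differ there by the fold that counts. Aldoc was at 1.65 CPM and Ndrg2 at 2.27 CPM in members of the vesicle, with 1.46 and 2.38 CPM in the other AP-type cells. Hmga2, a chromatin factor of young progenitors, was at 2.55-fold in the vesicle and 1.45-fold in the septal explants. Whether intronic reads entered the counts of the vesicle is not given in the sources used here, so levels were not compared between the libraries.

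**Figure D4:**
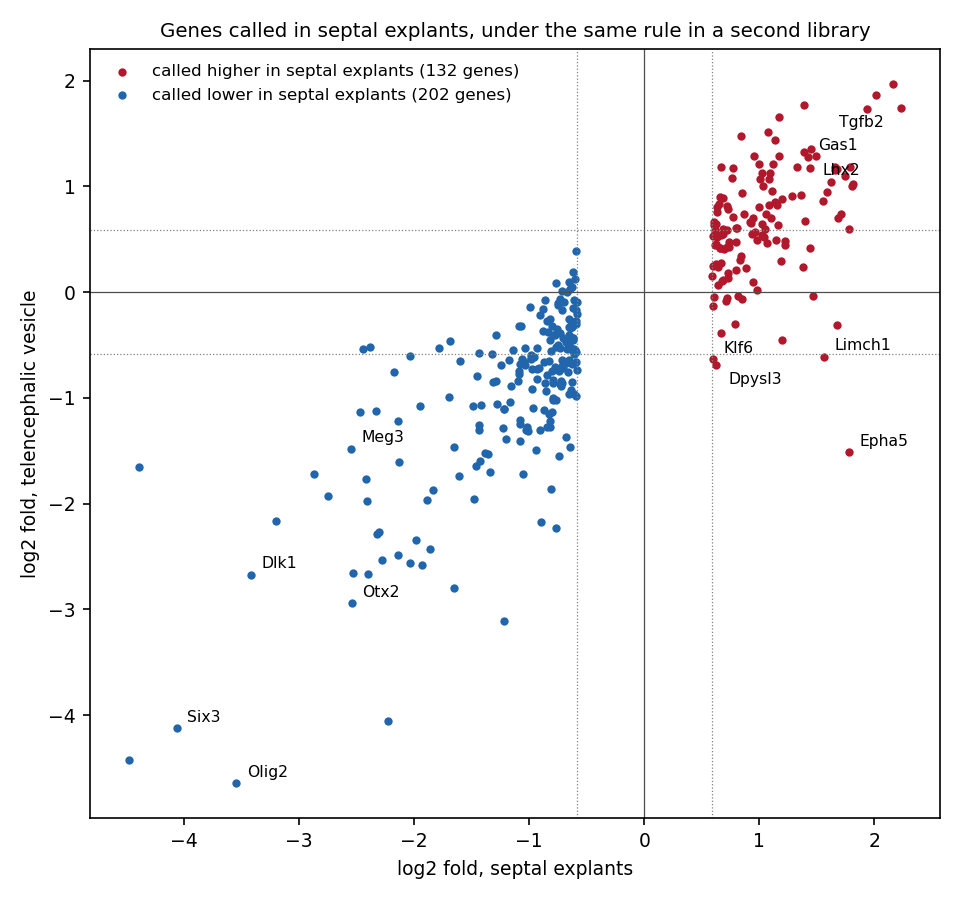
Log2 fold of pooled CPM, members over other AP-type cells, in the septal explants (x axis) and under the same rule in the telencephalic vesicle (y axis), for the 132 higher and 202 lower genes measured in both; dotted lines mark 1.5-fold. Most genes keep their side, and 4 genes called higher in the septal explants (Limch1, Epha5, Klf6 and Dpysl3) were called lower in the vesicle.

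Embryos of the pool could be separated in part by reporter and sex. Of the members, 467 had 3 or more YFP UMIs, 105 had 1 or 2, and 321 had none. Aldoc was at 192 CPM with 1 or 2 YFP UMIs and 215 CPM without, against 33.7 CPM with 3 or more, and Hmga2 at 243, 264 and 419 CPM. Xist without a Y-linked UMI was found in 637 members, Y-linked UMIs without Xist in 137, both in 42 and neither in 77. A cell without a YFP UMI may still come from an E11.5 embryo. YFP and sex together gave 4 groups, of which those of the same sex may share embryos, of 325 (YFP, Xist), 70 (YFP, Y-linked), 239 (no YFP, Xist) and 47 members (no YFP, Y-linked).

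Within each of these groups, members were compared with the other AP-type cells of the same group. Of the 149 higher genes, 146, 140, 148 and 139 were above 1, and of the 256 lower genes 256, 250, 256 and 242 were below 1. Dct was 6.50, 6.24, 5.66 and 20.4-fold higher, Lrrn1 3.68, 5.03, 2.82 and 6.06-fold, and Neurog2 3.25, 4.09, 2.81 and 5.58-fold. Aldoc was at 2.77, 2.65, 4.28 and 3.82-fold, in each group below its value in all cells (5.44-fold). It was higher in cells without YFP, which were 321 of 893 members and 806 of 2914 other AP-type cells. Six3 was at 0.058, 0.148, 0.035 and 0.069-fold. Some intervals in the smaller groups include 1. Ndrg2 was at 1.44-fold (0.857 to 2.35) in YFP cells with Y-linked UMIs, and Bach2, Alcam and Hba-a2 were at 1.64, 2.18 and 0.935-fold in the Y-linked cells without YFP, all with intervals that include 1. These groups come from the cells that chose the genes, and they are a description of spread only. The share of all measured genes on each side of 1 in these groups is not given here.

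**Figure D5:**
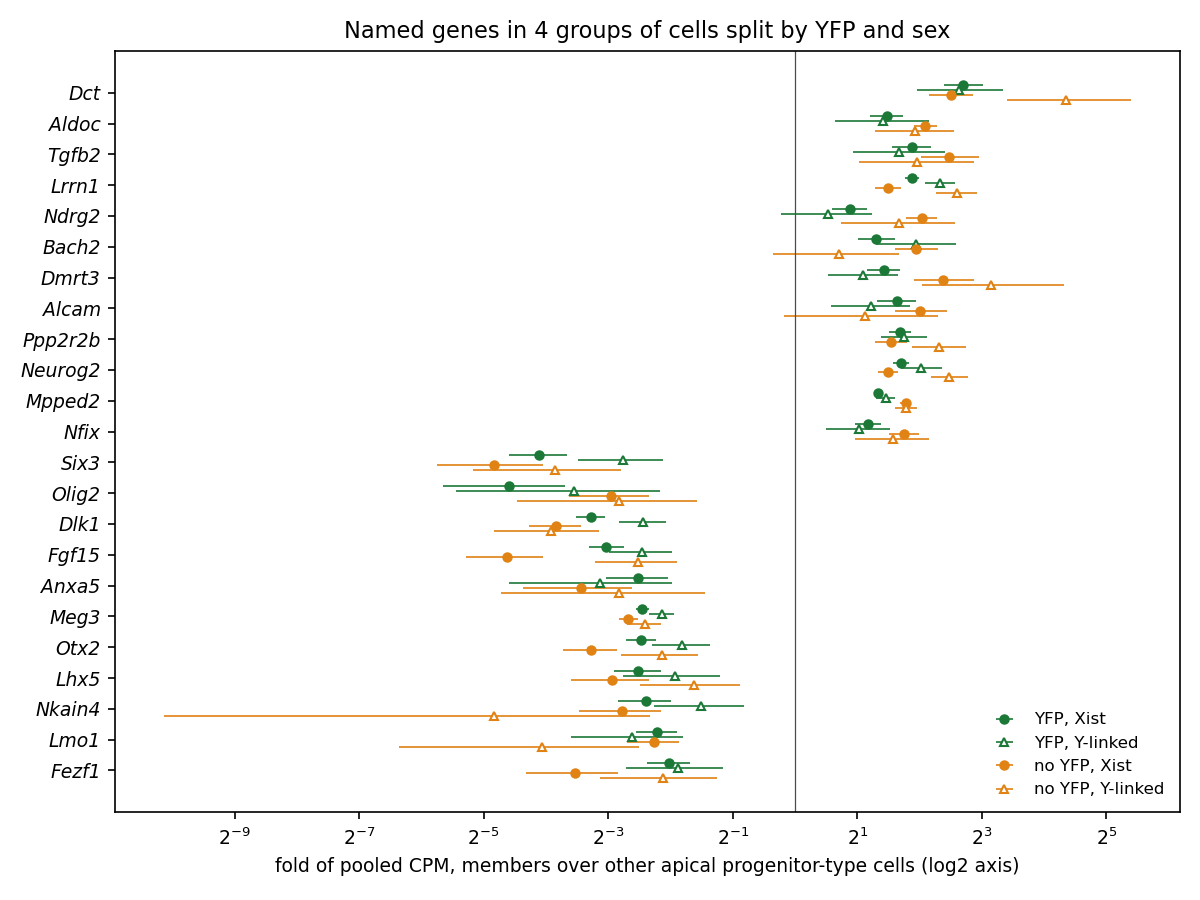
Fold of pooled CPM, members over other AP-type cells (x axis, log2 scale), for 23 named genes in 4 groups of cells split by YFP and by Xist or Y-linked UMIs; bars are exact 95% intervals for counting error. The points of the 12 higher genes lie right of 1 and those of the 11 lower genes left of 1 in all 4 groups, with the widest bars in the group of 47 members.

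The groups of embryos did not contribute alike. Among cells without YFP that had UMIs of 1 sex only, 47 of 286 members (16.4%, interval 12.3 to 21.2%) and 260 of 620 other AP-type cells (41.9%, 38.0 to 45.9%) were Y-linked. In cells with 3 or more YFP UMIs the shares were 17.7% and 19.9%. Dissection, age and litter cannot be told apart behind this difference.

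Levels among members also differed by embryo group. Members with 3 or more YFP UMIs, which only the E11.5 embryos carry, were set against those without, leaving out the 3 members with haemoglobin. Of 7413 genes, 61 were higher (0.823%) and 138 lower (1.86%) in YFP cells. Hmga2 (424 against 264 CPM, 1.60-fold) and Crabp2 (239 against 145 CPM, 1.64-fold) were higher, as were Id3 (2.21-fold), Lmo2 (2.17-fold) and Dlk1 (2.11-fold). Aldoc (34.1 against 215 CPM, 0.159-fold), Ndrg2 (0.213-fold), Nfix (0.413-fold), Bach2 (0.444-fold), Nfib (0.467-fold) and Dct (42.9 against 86.6 CPM, 0.495-fold) were lower. All 5 measured immediate early genes were lower, with Fos at 13.6 against 99.9 CPM.

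Many of these values rest mainly on cells with Xist. Between Y-linked members with and without YFP, Ccnd2 was at 1.11-fold and Nfix at 0.721-fold, where all members gave 0.488 and 0.413-fold. Ndrg2 (0.721-fold, interval 0.375 to 1.41), Id3 (1.27-fold), Lmo2 (1.38-fold, 0.827 to 2.37), Crabp2 (1.47-fold) and Hmga2 (1.18-fold) also differed by less than 1.5-fold there. Bach2 was at 2.03-fold there (interval 1.06 to 4.21), on the other side of 1. Fos (0.283-fold), Aldoc (0.399-fold) and Gt(ROSA)26Sor (0.199-fold), the transcript of the reporter locus, were lower in both sexes. Dlk1 was higher in both, at 1.89-fold with Xist and 2.66-fold (interval 1.45 to 5.27) among Y-linked members. Age, genotype and litter cannot be told apart in this comparison.

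Members were also described by their number of Emx1 UMIs, a value that the rule used and that grows with depth. Sfrp1 was at 479, 472 and 480 CPM in members with 2, 3 and 4 or more Emx1 UMIs (225, 180 and 488 cells), and Pax6 at 272, 266 and 252 CPM, with overlapping intervals. Lhx2 was at 330 CPM (interval 311 to 349), 436 and 554 CPM (539 to 569), Mpped2 at 514, 610 and 760 CPM, and Neurog2 at 97.9, 153 and 233 CPM. Otx2 was at 37.0, 20.7 and 15.95 CPM. The median depth of these cells was 14162, 15509.5 and 17625.5 UMIs. Embryo group was not held constant here, and Emx1 and Lhx2 were both higher in members with Xist and no YFP (302 and 678 CPM) than in those with Xist and YFP (231 and 421 CPM).

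Neurog2 was used to split members. It was absent in 418 members, at 1 UMI in 142 and at 2 or more in 333, with similar median depths (16605.5 and 16216 UMIs for the first and the last). Of 7417 genes, 72 were higher (0.971%) and 55 lower (0.742%) with 2 or more Neurog2 UMIs than with none, and thinned cells gave 168 and 165. The leading genes were Neurog1 (46.9 against 3.98 CPM, 11.8-fold), Gadd45g (184 against 22.1 CPM, 8.32-fold) and the Notch ligand Dll1 (91.4 against 12.1 CPM, 7.58-fold), all of which accompany the start of neurogenesis. Mfng (2.85-fold), Hes6 (2.30-fold) and the antiproliferative gene Btg2 (2.28-fold) followed, and 7 of 8 measured proneural genes were higher and 0 lower.

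Of 15 pallial factors 6 were higher with Neurog2, namely Tfap2c (1.71-fold), Tcf4 (1.68-fold), Lhx2 (1.67-fold), Fezf2 (1.67-fold), Dmrt3 (1.65-fold) and Dmrta1 (1.58-fold), and the immediate early genes Fos (1.804-fold) and Egr1 (1.57-fold) were higher too. Lhx2 was at 631 CPM in these cells and 374 CPM in members without Neurog2, while Sfrp1 (479 and 477 CPM) and Emx2 (241 and 239 CPM) were alike. Otx2 (0.453-fold), Tox (0.466-fold) and Ntrk2 (0.528-fold) were lower with Neurog2. This split left out the members with haemoglobin, so that 416 of the 418 members without Neurog2 entered it. YFP was at 3 or more UMIs in 141 of the 333 members with Neurog2 and in 247 of the 416 without. Neurog1 was 5.15-fold higher (interval 2.72 to 10.8) within members without YFP and 19.1-fold within those with 3 or more YFP UMIs, Gadd45g 8.00 and 9.30-fold, and Dll1 5.02 and 9.11-fold. Fos was at 1.38-fold without YFP, 1.87-fold with 3 or more YFP UMIs and 0.863-fold (interval 0.350 to 1.95) among Y-linked members.

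Wnt8b, a Wnt ligand of the medial pallium next to the hem, was also used to split members, and this split was added after the data were seen. It was absent in 493 members, at 1 UMI in 113 and at 2 or more in 287, and the last were deeper (17772 against 15566 UMIs without the members with haemoglobin). Of 7432 genes, 127 were higher (1.71%) and 89 lower (1.2%), and thinned cells gave 237 and 187. The Wnt potentiators Rspo3 (129 against 11.1 CPM, 11.6-fold) and Rspo1 (283 against 42.9 CPM, 6.595-fold), the BMP target Id3 (321 against 34.8 CPM, 9.22-fold), Lmo2 (9.20-fold), the Wnt secretion factor Wls (4.55-fold) and the ligand Bmp7 (3.96-fold) were higher. The Wnt list had 8 of 14 genes higher and 3 lower, the Zic family 3 of 5 higher, and the FGF list 4 of 13 higher.

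Lower with Wnt8b were Tox (0.268-fold), Rgcc (0.272-fold), Shisa2 (0.274-fold), Meis2 (90.4 against 197 CPM, 0.459-fold) and Ccnd2 (0.544-fold). Sfrp1 was at 371 CPM with 2 or more Wnt8b UMIs and 539 CPM without, and Pax6 at 211 and 299.9 CPM, while Emx2 was at 286 and 215 CPM. Without the members with haemoglobin, YFP was at 3 or more UMIs in 179 of the 287 members with 2 or more Wnt8b UMIs and in 241 of the 490 with none. The same direction was found within members without YFP, with Rspo3 9.31-fold, Id3 6.38-fold and Wls 4.71-fold higher. Among Y-linked members Ccnd2 was at 0.852-fold (interval 0.736 to 0.985), less than the 1.5-fold that counts. Neurog2 was nearly level across this split, at 1.01-fold.

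tdTomato, which reports a history of Dbx1, was found in 43 of 321 members without YFP. It was also found in 7 of the 467 members with 3 or more YFP UMIs, whose embryos carry no tdTomato allele, so that a tdTomato UMI does not by itself mark a cell of that history. Among members without YFP, those with tdTomato had Sfrp1 at 486 CPM, Emx2 at 225 CPM and Aldoc at 224 CPM, beside 485, 222 and 215 CPM in all of them.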

How the data were processed

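The authors deposited raw counts, the number of UMIs per gene and barcode, for 2 libraries. For the septal explants they used Cell Ranger 2.1.1 on mm10 with YFP and tdTomato sequences added, and for the telencephalic vesicle Cell Ranger 7.1.0 per the labels. Members and gene lists were chosen with earlier results of these data known. CPM and folds were computed from pooled counts with exact Poisson and exact conditional binomial intervals, in Python 3.11.15 with numpy 2.4.6, scipy 1.17.1 and pandas 2.3.3. A gene counted as called at 1.5-fold with a mean of 10 CPM. Named genes were the 12 highest and 12 lowest folds with a mean of 20 CPM, without genes of the rule, reporters, sex-linked, mitochondrial and ribosomal protein genes and genes without an established name. Genes of the lists were named as well. Gene positions follow GENCODE (GRCm38). Thinning drew 8000 UMIs per cell and left out 37 members and 367 other AP-type cells. Doublets were not removed. Scrublet (scanpy 1.11.5, 4.66% expected doublets) marked 0.0858% of barcodes and was taken as not having worked, and the 277 highest scores (26 members) were left out as an alternative. The steps were tested on simulated data. Some genes of the lists are counted in them but not reported here by name.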

Additional observations from a re-analysis of the deposited data

Results flagged for a closer look

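A set of 4 genes was called in opposite directions in the 2 libraries, higher in members of the septal explants and lower in those of the telencephalic vesicle. Limch1 was at 2.96-fold and 0.655-fold, Epha5, a guidance receptor, at 3.43-fold and 0.350-fold, Klf6 at 1.52-fold and 0.643-fold, and Dpysl3, a protein of growing neurites, at 1.54-fold and 0.620-fold. Each library is 1 pool, so the difference was not tested. Epha5, Klf6 and Dpysl3 were also lower in members with 3 or more YFP UMIs than in members without YFP (0.232, 0.492 and 0.478-fold). Among Y-linked members Epha5 was at 1.08-fold (interval 0.290 to 4.91), Klf6 at 0.494-fold (0.260 to 0.933) and Dpysl3 at 1.253-fold (0.716 to 2.27). They were looked up after their opposite calls were seen, and the part of embryo age in their difference between libraries was not tested.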

How the results depend on the processing

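The 149 higher genes included 145 above 1 among cells with 3 or more YFP UMIs, 147 among Y-linked cells, and 139 to 148 in the 4 groups by YFP and sex, and all 149 were above 1 under the other alternatives run in the septal library. Fewer were still called: 105 (70.5%) in Y-linked cells, 116 (77.9%) with 3 or more YFP UMIs and 117 (78.5%) with the rule on thinned counts. Of the 256 lower genes, 249 were below 1 without non-neural cells and 242 to 256 under the rest, the YFP and sex groups included. All of these settings reuse the septal cells that chose the genes, so the counts describe spread only. Outside the 4 groups by YFP and sex, the median log2 fold of all measured genes lay between -0.012 and 0.050. Counts of higher and lower genes moved by over 1.5 times with a fold of 2 (69 and 117), a minimum of 50 UMIs over both groups in place of a mean CPM (380 and 1529, with 19.9% of the calls higher against 36.8%) and a mean of 50 CPM (51 and 67). Cells without YFP gave 238 higher genes and Y-linked cells 237. Applying the rule to thinned counts left 567 members. In the vesicle, 117 of the higher genes were on the same side of 1, against 73 called. With at least 2 UMIs, the shares of members were 93.1% for Sfrp1, 78.7% for Pax6 and 89.0% for Lhx2, and thinned they were 92.6%, 80.3% and 91.5%. Thinned, the Neurog2 split gave 168 higher and 165 lower genes and the Wnt8b split 237 and 187, and the cause was not tested. Of the folds of 28 named genes and markers, 17 moved by over 1.5 times under at least 1 of 11 settings. Dct ranged from 6.29 to 23.0-fold, Dmrt3 from 2.77 to 9.88, Aldoc from 2.76 to 9.56 (lowest for these 3 with 3 or more YFP UMIs, highest against others with no Emx1 UMI), Ndrg2 from 1.68 to 5.07 and Neurog2 from 3.06 to 8.54. Hba-a2 reversed, to 1.04 without non-neural cells. No paired analysis was possible because each library is the only one of its kind. Depth limits statements on genes below 10 CPM, and 1 library cannot show the spread between pools.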

Other observations

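Some features stood outside the comparisons. Cells with both Xist and Y-linked UMIs, 42 of 893 members, had a median of 19866 UMIs, against 16360 in members with Xist only. Of the nuclear receptors that pattern the pallium, Nr2f1 was found in 44 members (4.93%, interval 3.60 to 6.56%) and Nr2f2 in 5 (0.560%, 0.182 to 1.30%), against 2.30% and 1.89% of the other AP-type cells, where neurons with Gad1 and Gad2 had 1.15% of either.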
